A study of Mus musculus with 6 samples.

Results

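The 10 genes described here encode transcription factors and a coactivator that hold B cells in their identity or lead them to plasma cells, namely Pax5, Ebf1, Bcl6, Bach2, Irf4, Irf8, Prdm1, Xbp1, Spib and Pou2af1. They were picked by name from the 55421 genes of the deposited table, and all 10 were among the 17640 genes that averaged 10 or more normalized counts and entered the test. Poly(A) RNA of GFP+ splenic B cells was sequenced from 3 mice with CD21-cre and the Rosa mT/mG reporter (called WT) and from 3 mice that were also Hnrnpl F/F (called hnRNPL-deficient), 1 library per mouse. The cells were sorted 24 h after activation with LPS, a toll-like receptor ligand, at 5 µg/ml and the cytokine IL-4 at 5 ng/ml. Values are normalized counts, which are reads per gene divided by a size factor for each library. The mice were on a C57BL6/J background, of both sexes and older than 6 weeks. Both groups carried the cre and the reporter, which turns cells that have recombined from tdTomato to GFP, and the groups differed by the floxed Hnrnpl alleles. CD21-cre acts mainly in peripheral B cells but also excises in other tissues during development, so that these are cells of mice in which other organs may have lost hnRNPL, an RNA-binding protein that regulates splicing.

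Pax5 and Ebf1 switch on the genes of the B-cell receptor and its co-receptors and silence the programs of other lineages. In an activated B cell, Bcl6 and Bach2 repress Prdm1, the gene of Blimp-1, and so delay plasma cell formation, whereas Irf4 at high levels and Blimp-1 shut off the B-cell program and Xbp1 expands the secretory pathway. Irf4 and Irf8 bind DNA weakly alone and are recruited by the ETS factors PU.1 and Spi-B to composite elements that join an ETS half-site to an IRF half-site, and Pou2af1 (OCA-B) is the coactivator of the octamer-binding proteins Oct1 and Oct2.

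Of the 10 factors, Bcl6 rose in hnRNPL-deficient cells, to 1.56 times the WT level, and Bach2 was lower without reaching the fold-change minimum. The other 8, with Pax5, Ebf1, Irf4, Prdm1 and Xbp1 among them, had group ranges that overlapped and log2 fold changes within 0.2 of 0. The promoters of Bcl6 and Bach2 are shown here because these were the 2 factors with separate groups. RefSeq (GRCm38.p6) listed a start for each of the 10 genes, 13 starts in all, and the 250 bases before each were searched on both strands for 4 elements that members or their partners are known to bind. These were the octamer (ATGCAAAT), the ETS-IRF composite element (GGAANNGAA), the EBF palindrome (CCCNNGGG) and the AP-1-like core that BACH2 shares with other leucine zipper proteins (TGANTCA).

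The windows are written 5′ to 3′ on the strand of the gene, ending at the base before the start, with the ETS-IRF match in capitals. Both lie inside the gene's span:
Bcl6, chr16:23981284-23981533, minus strand: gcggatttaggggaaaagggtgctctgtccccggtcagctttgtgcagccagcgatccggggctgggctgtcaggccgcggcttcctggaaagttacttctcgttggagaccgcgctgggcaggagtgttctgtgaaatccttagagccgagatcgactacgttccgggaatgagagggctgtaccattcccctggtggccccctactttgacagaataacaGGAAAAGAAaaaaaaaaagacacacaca
Bach2, chr4:32417185-32417434, plus strand: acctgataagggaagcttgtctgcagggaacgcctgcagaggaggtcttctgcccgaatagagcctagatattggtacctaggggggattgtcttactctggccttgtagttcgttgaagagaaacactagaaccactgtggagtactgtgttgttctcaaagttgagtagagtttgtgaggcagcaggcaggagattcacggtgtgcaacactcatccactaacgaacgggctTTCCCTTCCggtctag

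In Bcl6 the match lay 28 to 20 bases before the start on the gene's own strand, and in Bach2 it lay 16 to 8 bases before the start on the opposite strand. No window of the other 8 genes held the ETS-IRF letters, nor did the window of the upstream Bcl6 start, and 6.99% of the 32851 RefSeq promoters of the same length did. The AP-1-like core was found once, 48 to 42 bases before the Prdm1 start, against 6.75% of all promoters. The EBF letters occurred in Spib in 2 overlapping copies, 65 to 58 and 64 to 57 bases before the start, against 11.8% of all promoters. The octamer was in no member's window and in 1.60% of all promoters. These are matches of letters, and binding was not measured. Which starts the cells used was not determined. Bcl6 and Bach2 differed between groups in opposite directions, and a link between the element and either difference was not tested.

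Hnrnpl itself, counted over the whole gene, stood at 24371, 25580 and 24174 normalized counts in WT libraries 1 to 3 and at 2178, 1519 and 1297 in hnRNPL-deficient libraries 1 to 3 (log2 fold change -3.93 ± 0.17 SE, limma adjusted p = 2.2e-05). The libraries held 40395186 to 75180749 reads on genes. Markers of the labelled cell type were present throughout: the 5 B-cell markers, Cd79a, Cd79b, Ms4a1 and Cd22 among them, summed to 141373 to 146105 normalized counts in WT and 122954 to 141854 in hnRNPL-deficient cells. T-cell markers summed to at most 51.9 and neutrophil markers to at most 2.74, and Cd3e, Cd4, Lyz2, Cd14, S100a8 and S100a9 were at 0 or within 2.02 normalized counts of it in every library. NK-cell markers summed to at most 7.21 and erythroid markers to 5.19 to 18.6 in WT and 16.2 to 27.3 in hnRNPL-deficient cells. Monocyte and macrophage markers summed to 260 to 331 in WT and 1239 to 1382 in hnRNPL-deficient cells. That difference was in Adgre1, which codes for a macrophage surface receptor, at 236, 282 and 315 in WT against 1217, 1337 and 1369, while Csf1r, Lyz2, Cd14 and Fcgr1 did not exceed 6.85 in any library and Itgam lay between 5.48 and 18.6. Of these 6 markers, 1 was called higher, and which cells its reads came from was not tested. Dendritic cell markers, nearly all of them Flt3 reads, summed to 404 to 522 and 417 to 447, with Siglech and Clec9a at 0 and Xcr1 higher at 21.6 to 27.4 against 8.12 to 9.51.

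Across all tested genes, 7.28% were called higher and 4.08% lower, 11.4% in all, by the criterion used throughout (limma on log2 of the normalized count plus 1, p under 0.1 after Benjamini-Hochberg adjustment and at least 1.5-fold). Of the 10 factors, 1 was called higher and none lower, and 1 factor (Bach2) was lower at an unadjusted p under 0.05. DESeq2 and edgeR, run on the reads of 5 libraries, also called 0 members lower. At an adjusted p under 0.1 with no minimum fold change, 2 of the 10 members passed (Bcl6 and Bach2), where 18.0% of all tested genes did, and these were also the 2 members whose groups did not overlap, where 34.0% of all tested genes had no overlap. A count of 2 in 10 is near the first background and under the second. The median log2 fold change was -0.02 for the members and -0.03 for all tested genes. As RNA was pooled from all sorted cells, fewer cells with a transcript and less of it per cell cannot be told apart in any of these values.

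**Figure D1:**
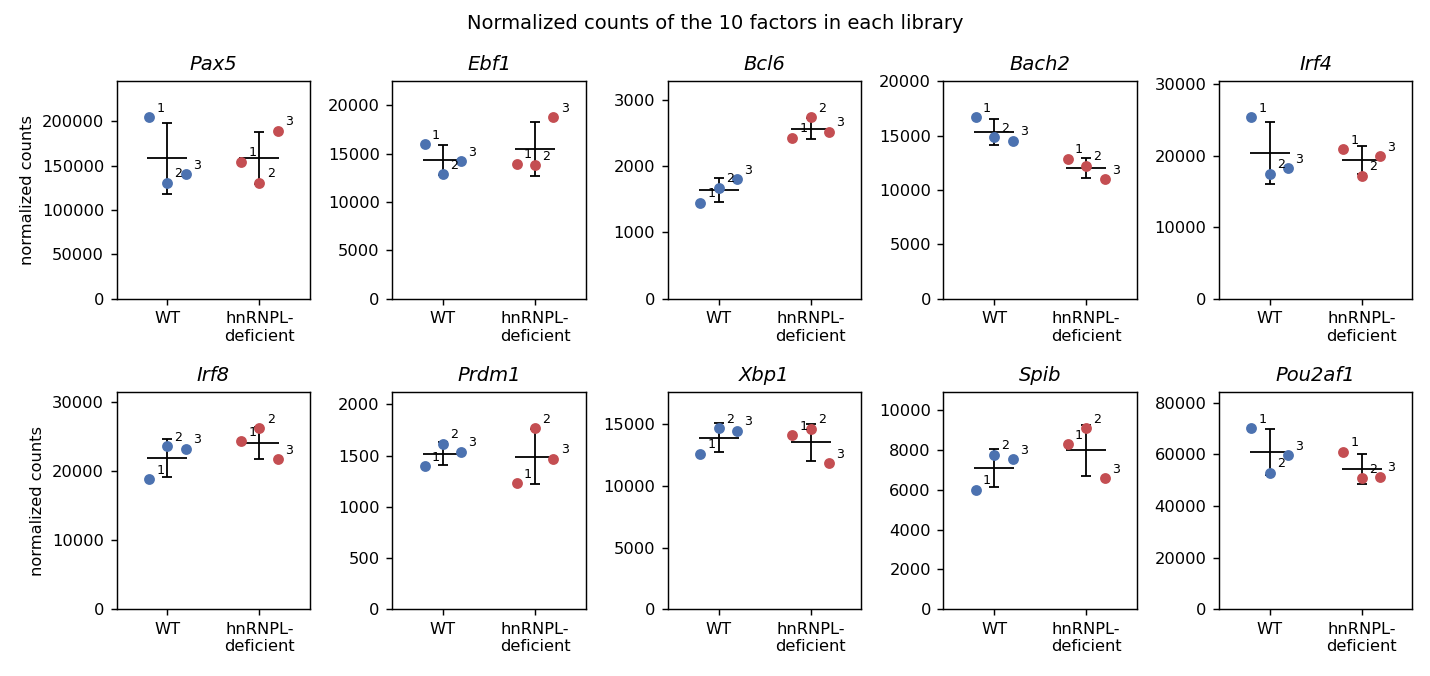
Normalized counts (vertical axes, from 0) of each factor in the 3 WT (blue) and 3 hnRNPL-deficient (red) libraries, with library numbers beside the points and the mean and SD as a black bar. The groups are separate for Bcl6 and Bach2 and overlap for the other 8.

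In normalized counts over the whole gene, neither founding factor of the lineage differed between groups by more than the spread within them. The paper lists Pax5 and Bcl6 among genes with altered splicing in hnRNPL-deficient B cells, which was not analysed here. Pax5 (chr4:44524757-44710487, GRCm38) had 204678, 130876 and 140574 normalized counts in WT libraries 1 to 3 and 154480, 131038 and 189706 in hnRNPL-deficient libraries 1 to 3. The means, 158709 ± 40105 and 158408 ± 29531 (SD, n = 3 each), differed by far less than the SD of either group. The log2 fold change was 0.01 ± 0.20 SE (adjusted p = 0.981), and the 95% interval of the fold change ran from 0.729 to 1.39.

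Ebf1 (chr11:44617317-45008091), which acts with Pax5 from the pro-B stage on, had 15983, 12876 and 14214 normalized counts in WT and 13951, 13790 and 18761 in hnRNPL-deficient cells. The groups overlapped, with hnRNPL-deficient library 3 the highest of the 6 and WT library 2 the lowest. Its log2 fold change was 0.10 ± 0.14 SE (adjusted p = 0.683), with an interval of 0.856 to 1.34-fold.

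Bcl6 (chr16:23965052-23988852) is the repressor that defines the germinal center B cell. It had 1447, 1675 and 1801 normalized counts in WT libraries and 2423, 2732 and 2515 in hnRNPL-deficient libraries. Every hnRNPL-deficient library was above every WT library, and the gap between the groups, from 1801 to 2423, was larger than the range within either. The means were 1641 ± 179 and 2557 ± 159 (SD, n = 3 each). The log2 fold change was 0.64 ± 0.12 SE (limma adjusted p = 0.0111), with a 95% interval of 1.30 to 1.88-fold. Leaving out WT library 1, the lowest, brought the log2 fold change to 0.56 (adjusted p = 0.0231), and edgeR on 5 libraries gave 0.58 (adjusted p = 0.0475), both short of the 1.5-fold minimum, so the call depends on that minimum.

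Bach2 (chr4:32238804-32586108), a repressor that dimerizes with small Maf proteins, had 16678, 14839 and 14516 normalized counts in WT libraries and 12866, 12220 and 11012 in hnRNPL-deficient libraries. The groups did not overlap here either, with every hnRNPL-deficient library below every WT library. Means were 15344 ± 1166 and 12033 ± 941 (SD, n = 3 each). The log2 fold change of -0.35 ± 0.10 SE had an adjusted p of 0.0622, and the interval of the fold change was 0.667 to 0.922, so that Bach2 passed the p-value threshold but was not called. That pass depended on the libraries and the method. The limma adjusted p was 0.0934 without hnRNPL-deficient library 1 and 0.127 to 0.146 on omission of any other library. On 5 libraries it was 0.129 with DESeq2 and 0.0923 with edgeR.

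A pair of noncoding transcripts lie in the Bach2 locus and were counted by strand. The antisense Bach2os (chr4:32559680-32571708) had 87.0, 54.5 and 49.7 normalized counts in WT and 46.0, 37.4 and 49.3 in hnRNPL-deficient cells, so that the groups were separated by less than 1 normalized count (adjusted p = 0.343). The sense intronic Bach2it1 had 99.8, 156 and 172 against 85.6, 176 and 200 (adjusted p = 0.939).

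**Figure D2:**
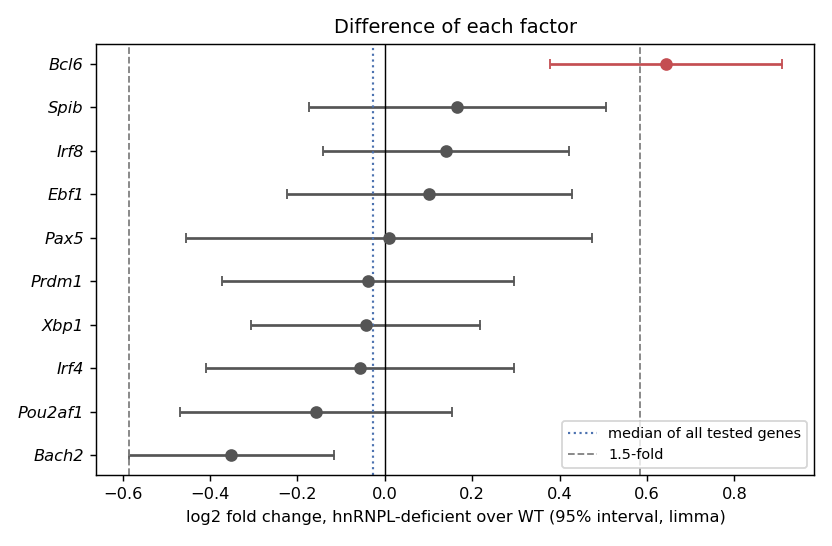
Log2 fold change, hnRNPL-deficient over WT (horizontal axis), of each factor with its 95% interval from limma. Bcl6 (red) is the only factor whose estimate lies past the dashed 1.5-fold lines, and the intervals of the 8 factors other than Bcl6 and Bach2 lie between these lines and include 0.

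Among the interferon regulatory factors, Irf4 (chr13:30749226-30766976), whose dose sets the choice between germinal center and plasma cell fates, had 25350, 17469 and 18227 normalized counts in WT and 20923, 17170 and 19922 in hnRNPL-deficient cells. WT library 1 was the highest of the 6, and the others lay within 17170 to 20923. The log2 fold change was -0.06 ± 0.15 SE (adjusted p = 0.839, interval 0.752 to 1.23-fold), and its sign turned to 0.11 without WT library 1.

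Irf8 (chr8:120736358-120756694), which opposes Irf4 in activated B cells and favours the germinal center program, had 18849, 23678 and 23308 normalized counts in WT and 24341, 26285 and 21751 in hnRNPL-deficient cells. The ranges overlapped, and the log2 fold change was 0.14 ± 0.12 SE (adjusted p = 0.503, interval 0.906 to 1.34-fold).

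Spib (chr7:44525993-44532071), the ETS partner of both, had 5994, 7742 and 7515 normalized counts in WT and 8259, 9084 and 6561 in hnRNPL-deficient cells. Here too library 3 of the hnRNPL-deficient group fell inside the WT range, and the log2 fold change was 0.17 ± 0.15 SE (adjusted p = 0.510, interval 0.887 to 1.42-fold).

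Pou2af1 (chr9:51213708-51240080) had 70221, 52874 and 59697 normalized counts in WT and 61117, 50824 and 51425 in hnRNPL-deficient cells. WT library 1 was highest, and hnRNPL-deficient library 1 lay above the other 2 WT libraries (log2 fold change -0.16 ± 0.14 SE, adjusted p = 0.493, interval 0.723 to 1.11-fold).

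Neither plasma cell factor passed the test. Prdm1 (chr10:44437177-44528501) had 1400, 1618 and 1538 normalized counts in WT and 1233, 1770 and 1469 in hnRNPL-deficient cells, where the lowest and the highest of the 6 values were both hnRNPL-deficient. Its log2 fold change was -0.04 ± 0.15 SE (adjusted p = 0.887), with an interval of 0.772 to 1.23-fold.

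Xbp1 (chr11:5520659-5525893), counted over all splice forms, had 12581, 14650 and 14416 normalized counts in WT and 14049, 14600 and 11815 in hnRNPL-deficient cells. The log2 fold change was -0.04 ± 0.11 SE (adjusted p = 0.833, interval 0.809 to 1.16-fold). For Prdm1 and Xbp1, as for the other 6 factors within 0.2 of 0, the interval lay inside 1.5-fold in either direction, which bounds the difference and does not show that the groups were equal.

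Within groups, 5 of the 10 factors were at the same extreme in WT library 1 and hnRNPL-deficient library 3. Pax5 and Ebf1 were highest in WT library 1 and in hnRNPL-deficient library 3, at 1.51 and 1.18 times the mean of the other 2 WT libraries and at 1.33 and 1.35 times the mean of the other 2 hnRNPL-deficient libraries. Irf8, Xbp1 and Spib were lowest in the same libraries, at 0.802, 0.866 and 0.786 times the others in WT and at 0.859, 0.825 and 0.757 times in hnRNPL-deficient cells. Of all tested genes, 15.6% were highest in both of these libraries and 19.6% lowest in both, near the counts of 2 and 3 in 10 among the factors. The same libraries had the lowest share of reads on the rRNA-like genes Gm26917 and Gm42418 in their groups, 2.90% in WT library 1 against 4.31% and 5.41%, and 3.24% in hnRNPL-deficient library 3 against 4.97% and 7.55%. They also had the highest share of mitochondrial transcripts in WT (6.77%) and in hnRNPL-deficient cells (8.92%), and the part of either in these values was not tested. Without both libraries Bcl6 had a log2 fold change of 0.57 (adjusted p = 0.0173).

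Levels were compared between factors after division by exon length, as normalized counts per kb of exon. The length was that of all annotated exons of a gene merged. Which transcripts the cells used was not determined, and the order between factors depends on these lengths. In WT cells Pou2af1 was highest at 23904 ± 3429 per kb (SD, n = 3) and Pax5 next at 17927 ± 4530 per kb, with overlapping ranges. Xbp1 (4274 per kb) and Irf4 (4150 per kb) followed, then Irf8 (3111 per kb) and Spib (2470 per kb), then Bach2 (1544 per kb) and Ebf1 (1472 per kb). Prdm1, at 272 ± 19.8 per kb, and Bcl6, at 245 ± 26.8 per kb, came last. Neighbours overlapped within each of these 5 pairs and not between the pairs, so that on this scale the factors stood at 5 levels separated beyond the range of the WT libraries.

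In hnRNPL-deficient cells the upper part of the order was the same, from Pou2af1 (21363 per kb) and Pax5 (17893 per kb) to Spib (2778 per kb), with overlap between Irf4 and Irf8 as well. Below it, the order of both lower pairs turned. Ebf1, at 1589 ± 290 per kb, stood above Bach2, at 1211 ± 94.7 per kb, and Bcl6, at 382 ± 23.7 per kb, stood above Prdm1, at 267 ± 48.2 per kb. In both pairs the ranges were separate in hnRNPL-deficient cells and overlapped in WT cells.

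**Figure D3:**
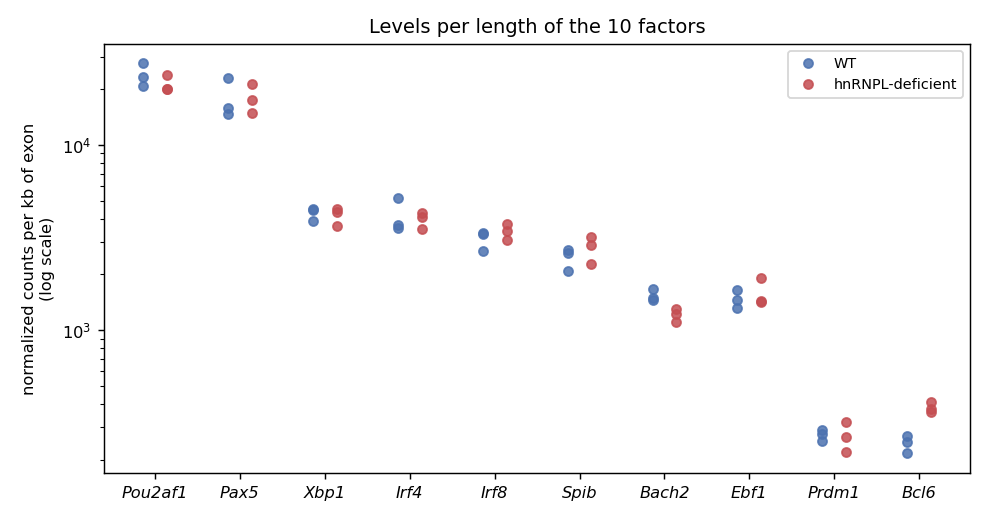
Normalized counts per kb of exon (vertical axis, log scale) of the 10 factors in WT (blue) and hnRNPL-deficient (red) libraries, ordered by the WT mean. Bach2 and Ebf1, and Prdm1 and Bcl6, share their range in WT and part in hnRNPL-deficient cells.

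Ratios within a library do not depend on how libraries were scaled, and 3 of them were compared, each between factors that oppose each other. The Bcl6 to Prdm1 ratio of normalized counts was 1.03, 1.04 and 1.17 in WT libraries and 1.96, 1.54 and 1.71 in hnRNPL-deficient libraries. The groups did not overlap, and the difference of mean log2 ratios was 0.68. With 3 libraries against 3 the two-sided exact permutation test cannot go below p = 0.1, and it gave p = 0.1 here (0.3 after Benjamini-Hochberg adjustment over the 3 ratios). Of the members of this ratio, Bcl6 was called and Prdm1 was not.

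The Irf4 to Irf8 ratio was 1.34, 0.738 and 0.782 in WT and 0.860, 0.653 and 0.916 in hnRNPL-deficient cells (log2 difference -0.20, exact permutation p = 0.7). WT library 1 stood apart, and without it the difference was 0.08. The Pax5 to Prdm1 ratio was 146, 80.9 and 91.4 against 125, 74.0 and 129, with wide overlap (log2 difference 0.05, exact permutation p = 1).

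**Figure D4:**
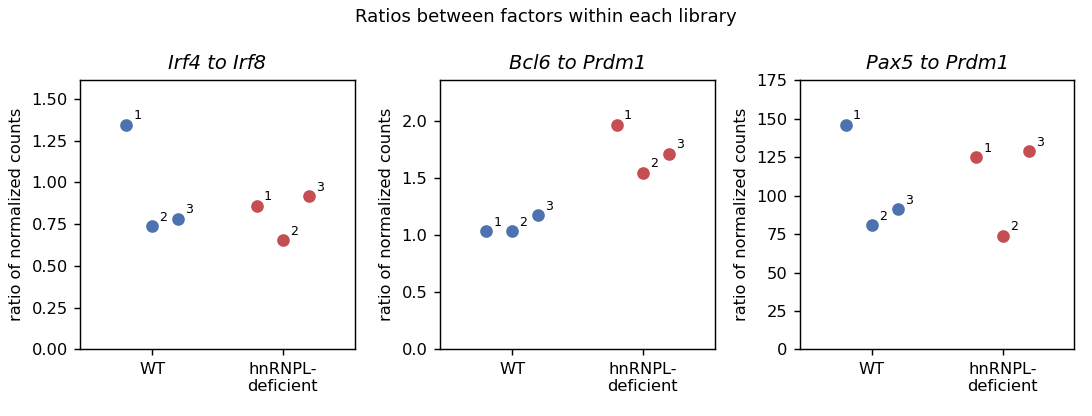
Ratios of normalized counts between opposing factors (vertical axes, from 0) in each WT (blue) and hnRNPL-deficient (red) library, with library numbers beside the points. The Bcl6 to Prdm1 ratio lies between 1.03 and 1.17 in WT and between 1.54 and 1.96 in hnRNPL-deficient cells, and the other 2 ratios overlap.

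The genes on which the factors act, and those that act with them, were examined as lists. Of 18 tested genes known to be activated by Pax5 and Ebf1, 4 (22.2%) were called higher and 2 (11.1%) lower, while 12 were not called. Over all tested genes, the background for each list, 7.28% were called higher and 4.08% lower. The median log2 fold change was 0.24 in the list and -0.03 over all tested genes. The inhibitory co-receptor Cd72 rose from 1249 to 2110 normalized counts (mean of 3 each, log2 fold change 0.77, adjusted p = 0.0133), and the complement receptor Cr2 from 4015 to 7299 (0.85, adjusted p = 0.0444). The transcription factor Lef1 rose from 2098 to 3558 (0.79, adjusted p = 0.0248). The chemokine receptor Cxcr5 fell from 21104 to 13777 (-0.61, adjusted p = 0.00955), and the toll-like receptor homologue Cd180 from 23554 to 15644 (-0.59, adjusted p = 0.0208). The paper reports a lower frequency of marginal zone B cells in the spleens of CD21-cre Hnrnpl F/F mice. The part of the starting mix of B cells in these values was not tested.

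Several of these calls depended on a library or on the scaling. Cd180 and Cxcr5 were not called after scaling to equal totals, after quantile normalization, with DESeq2 on 5 libraries or without WT library 1, with a log2 fold change that shrank to -0.42 and -0.46 at the least over the alternatives, and Cd180 also not without hnRNPL-deficient library 2. Cr2 lost its call on omission of hnRNPL-deficient library 3 or of WT library 2 or 3 (adjusted p up to 0.145). Cd22, an inhibitory co-receptor that was not called, stood at 33973, 30709 and 34388 in WT and 23718, 22425 and 21704 in hnRNPL-deficient cells (log2 fold change -0.55, adjusted p = 0.00987).

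Of 28 other B-lineage transcription factors, 5 (17.9%) were called higher and 1 (3.57%) lower (median 0.06). Myb, normally highest in progenitors and dividing cells, rose from 157 ± 12.9 to 454 ± 47.8 normalized counts (SD, n = 3 each, log2 fold change 1.53, adjusted p = 0.00136). The basic helix-loop-helix repressors Bhlhe41 (422 to 843, 0.99) and Bhlhe40 (1390 to 2210, 0.67) rose, as did the germinal center factor Mybl1 (430 to 687, 0.69) and Mef2c, a target of signals from the B-cell receptor (36059 to 55256, 0.61). Zbtb32, a BTB zinc finger repressor of activated B cells, fell from 2186 to 1208 (-0.87, adjusted p = 0.0236). Myb, Bhlhe41 and Zbtb32 were called in all 18 alternative fits at the main thresholds. At an adjusted p under 0.05 and 2-fold, 1 gene of this list was called higher and 0 lower, so that Zbtb32 lost its call. Mef2c was not called without WT library 3 or hnRNPL-deficient library 3 (log2 fold change 0.54 at the least), Bhlhe40 not without WT library 3 (adjusted p up to 0.101), and Mybl1 lost its call on omission of hnRNPL-deficient library 1 or of WT library 2 or 3 (adjusted p up to 0.134). Foxo1, an early partner of Ebf1, stood at 6820, 6089 and 6447 in WT and 8725, 9146 and 8608 in hnRNPL-deficient cells (log2 fold change 0.45, adjusted p = 0.0163), under the fold minimum.

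The partners and cofactors of the 10 members gave 1 called gene (5.56%, lower) among 18 tested, and a median of -0.12. None was called higher by limma, DESeq2 or edgeR. At an unadjusted limma p under 0.05, 2 were higher and 6 lower. Maff, a small Maf partner of Bach2, fell from 102 to 63.0 normalized counts (log2 fold change -0.69, adjusted p = 0.0981) and lost the call when any 1 library was left out (adjusted p up to 0.292). Batf, which recruits Irf4 and Irf8 to AP-1 composite sites, stood at 5727, 4812 and 4536 in WT and 3887, 3360 and 3421 in hnRNPL-deficient cells (-0.49, adjusted p = 0.0318), without overlap but under 1.5-fold. Ern1, the IRE1 nuclease that splices Xbp1 mRNA, stood at 538, 529 and 516 against 662, 726 and 759 (0.44, adjusted p = 0.0570). Pou2f2 (Oct2), the main partner of Pou2af1, had a log2 fold change of 0.03 (adjusted p = 0.897), and Spi1 (PU.1) one of 0.02 (adjusted p = 0.957).

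**Figure D5:**
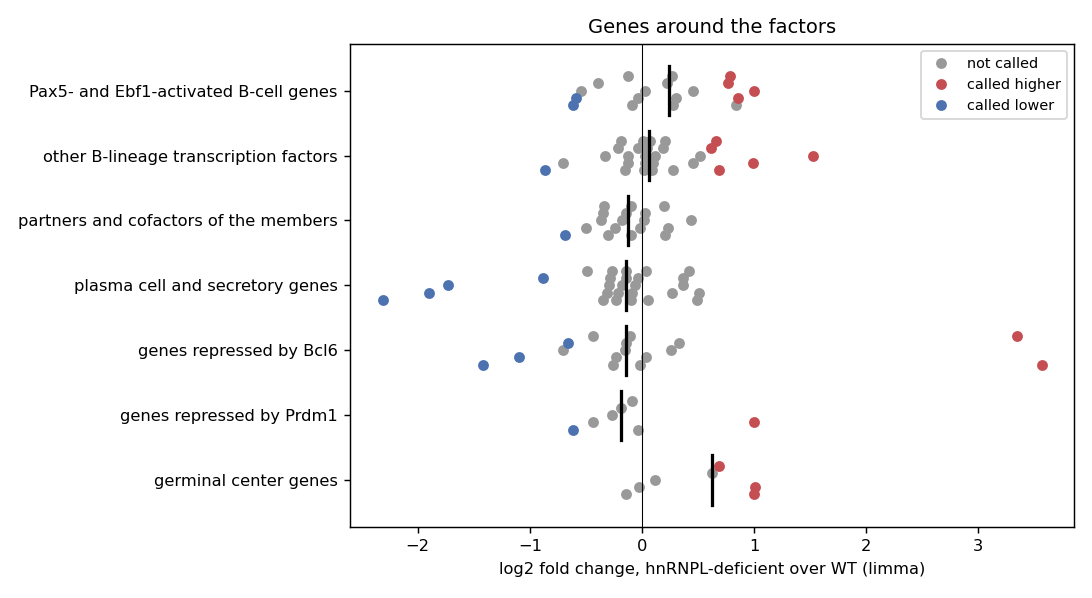
Log2 fold change, hnRNPL-deficient over WT (horizontal axis), of each tested gene in 7 lists around the factors, with genes called higher in red, lower in blue and not called in grey, and the median of each list as a black bar. The 4 called plasma cell and secretory genes are all lower, and Cdkn1a and Cd80, from the list of genes repressed by Bcl6, lie past 3 on the log2 scale.

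Although Prdm1 and Xbp1 differed by less than the spread between libraries, 4 of 27 tested plasma cell and secretory genes (14.8%) were called lower. Of all tested genes, 4.08% were called lower. None of the list was called higher by limma, DESeq2 or edgeR. At an unadjusted limma p under 0.05, 4 were higher and 10 lower, and the median was -0.14. Jchain, which joins polymeric IgM and IgA, had 117, 109 and 26.0 normalized counts in WT and 23.4, 7.07 and 13.7 in hnRNPL-deficient cells (log2 fold change -2.31, adjusted p = 0.0509). WT library 3 was far below the other WT libraries and just above the hnRNPL-deficient range. Tent5c, a poly(A) polymerase that stabilizes immunoglobulin mRNA, fell from 838 ± 49.0 to 230 ± 61.2 (SD, n = 3 each, -1.90, adjusted p = 0.00162), and the folding enzyme Fkbp11 from 60.8 ± 3.99 to 18.2 ± 5.95 (-1.73, adjusted p = 0.0134).

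Derl3, a component of endoplasmic reticulum-associated degradation and an Xbp1 target, had 269, 539 and 522 normalized counts in WT and 176, 297 and 229 in hnRNPL-deficient cells, with overlap (-0.88, adjusted p = 0.0999). Tent5c and Fkbp11 kept the call under every alternative that tested them. Derl3 was not called without WT library 2 or 3 or without hnRNPL-deficient library 1 or 3 (adjusted p up to 0.276). Jchain was not called without WT library 1 or 2 or without hnRNPL-deficient library 2 or 3 (adjusted p up to 0.149). Omitting hnRNPL-deficient library 3 or WT library 2 left 2 of these 4 calls. With a minimum mean of 50 normalized counts, which left Jchain and Fkbp11 untested, 1 call remained, and quantile normalization added 2 genes called higher. Sdc1, the plasma cell surface marker CD138, stood at 123, 112 and 128 in WT and 133, 130 and 75.4 in hnRNPL-deficient cells (-0.14, adjusted p = 0.766), and Tnfrsf17 (BCMA) did not exceed 2.74. With Jchain these plasma cell markers summed to 154 to 240 in WT and 91.8 to 156 in hnRNPL-deficient cells. Manf, an endoplasmic reticulum stress protein, stood at 19119, 19509 and 19221 against 13656, 14060 and 13475 (-0.49, adjusted p = 0.00881), whereas Atf6, a sensor of the same stress, stood at 9734, 9704 and 9990 against 13313, 13679 and 14930 (0.51, adjusted p = 0.00967). Neither reached 1.5-fold.

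Genes that Bcl6 is known to repress did not move together. Of 16 tested, 2 (12.5%) were called higher and 3 (18.8%) lower (median -0.15). The cell-cycle inhibitor Cdkn1a, at 440, 553 and 421 normalized counts in WT, reached 4739, 5193 and 4376 in hnRNPL-deficient cells (log2 fold change 3.34, adjusted p = 2.1e-05). The paper describes Cdkn1a as a p53 target and reports more p53 protein in hnRNPL-deficient B cells. The part of p53 or of Bcl6 in these values was not tested. The costimulatory ligand Cd80, at 136, 112 and 98.7 in WT, reached 1294, 1164 and 1689 (3.57, adjusted p = 4.3e-05). Cyclin D2 (Ccnd2) fell from 162167 to 75718 (-1.09, adjusted p = 0.00344), the checkpoint kinase Chek1 from 2841 to 1786 (-0.66, adjusted p = 0.0419), and the chemokine Ccl3, at 81.2, 39.8 and 45.9 in WT, to 24.3, 23.2 and 12.3 (-1.42, adjusted p = 0.0549). Chek1 and Ccl3 were both not called without WT library 1 or without hnRNPL-deficient library 3, and Chek1 not without hnRNPL-deficient library 2 nor Ccl3 without WT library 3. With WT library 1 and hnRNPL-deficient library 3 left out together, Chek1 had a log2 fold change of -0.41 and Ccl3 an adjusted p of 0.164. Gpr183 and S1pr1, receptors that guide B cells in the follicle and out of it, had log2 fold changes of 0.03 and 0.26 (adjusted p = 0.854 and 0.244).

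Of 7 genes that Blimp-1 is known to repress, 1 was called higher and 1 lower (14.3% each), and 5 were not called (median -0.19). The lower one was Cxcr5, with the dependence on WT library 1 given above. Ciita, the activator of MHC class II, had a log2 fold change of -0.03 (adjusted p = 0.915), and Myc one of -0.44 (adjusted p = 0.0976) with overlapping groups. Of 10 genes of germinal center B cells, 7 were tested, of which 3 (42.9%) were called higher, against 7.28% of all tested genes. None was called lower by limma, DESeq2 or edgeR. At an unadjusted limma p under 0.05, 4 were higher and 0 lower, and the median was 0.62. Fas, the death receptor, was at 267, 267 and 240 normalized counts in WT and 511, 472 and 583 in hnRNPL-deficient cells (1.01, adjusted p = 0.00529) and was called in all 18 alternative fits. Mybl1, described above, was also called, and the count of 3 was 1 without WT library 2, without WT library 3 or without hnRNPL-deficient library 1. S1pr2, which holds B cells in the germinal center, stood at 77.8, 50.1 and 56.6 in WT and 73.9, 73.7 and 30.2 in hnRNPL-deficient cells (adjusted p = 0.849).

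The tested genes whose profile over the 6 libraries was most like that of Bcl6 included Nprl3 (Pearson r = 0.999) and Coq9 (r = 0.999). Nprl3, of the GATOR1 complex that restrains mTORC1, rose from 1114 to 1674 normalized counts, and Coq9, of coenzyme Q synthesis, from 543 to 941. Such values come from 2 groups of 3 libraries, and 463 tested genes had r above 0.95 with Bcl6, so that the likeness describes the difference between the groups together with the spread inside them.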

How the data were processed

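RNA-seq of 3 WT and 3 hnRNPL-deficient libraries was analysed, grouped by the submitters' labels. The authors trimmed reads with fastp 0.23.1, aligned them to mm10 with STAR 2.7.9a, counted them per gene and strand with featureCounts on GENCODE annotation, and normalized them with DESeq2 1.38.2. The deposited values are therefore a signal per gene, namely counts divided by a size factor per library. The table also holds the authors' own comparison (mean, log2 fold change, its error, statistic, p-value, adjusted p-value and a label), which was not used.

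The main test was limma 3.58.1 (R 4.3.3) with a mean-variance trend on log2(normalized count + 1), for 17640 genes averaging 10 or more, with calls at 1.5-fold and p under 0.1 after Benjamini-Hochberg adjustment. Fold changes are on that scale, which understates the change of low genes. Whole reads were recovered by dividing out each library's step (100% of values whole within 0.001). The step of hnRNPL-deficient library 2 is too close to 1 to be told from rounding, so edgeR 4.0.16 (quasi-likelihood, TMM) and DESeq2 1.42.0 were run on the 5 other libraries as alternatives. Ratios were tested by exact permutation, whose smallest p is 0.1. Each library came from its own mouse, and pairs within a group differed beyond sampling noise.

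The members, lists and tests were chosen with earlier results of these data known. Genes named were Hnrnpl, the 10 members, transcripts named after them, up to 6 called genes per list by size of change, markers, and the 3 genes most correlated with a called member. Some genes that this rule names are not reported here, although counts and medians of lists include them. Genes named with values but not called, such as Cd22, Batf, Foxo1, Manf or Sdc1, were chosen after their values were seen. Exon lengths and coordinates come from GENCODE M21 (GRCm38), a different release from the authors', and promoters from RefSeq. The scripts were tested on simulated data. Alternatives were the pseudocount (0.5 and 5), the filter on low values, no trend, equal totals, quantile normalization, a replicate block, stricter thresholds (0.05 and 2-fold) and leaving out each library. A sex term (Xist above 1000 in 1 library of each group) and leaving out WT library 1 together with hnRNPL-deficient library 3 were added after seeing the data. Splicing was not analysed here.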

Additional observations from a re-analysis of the deposited data

How the results depend on the processing

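Over 18 alternatives the log2 fold change of Bcl6 stayed between 0.56 and 0.71 with an adjusted p of 0.00313 to 0.0475. It fell under 1.5-fold, leaving 0 members called higher, with edgeR on 5 libraries (0.58), without WT replicate 1 (0.56) and without both WT replicate 1 and hnRNPL-deficient replicate 3 (0.57), and 0 members were called at an adjusted p under 0.05 and 2-fold. Leaving out 1 library at a time gave 0 to 1 members called higher. Bach2 was not called under any alternative (log2 fold change -0.40 to -0.20, adjusted p 0.0136 to 0.155). Across all genes, the stricter threshold left 610 higher and 216 lower, and leaving out 1 library gave 830 to 1111 higher and 478 to 696 lower, the lowest without WT replicate 3. No scaling moved the median of all genes by more than 0.1.

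Differences near 0 changed sign. Over the libraries left out, Pax5 ranged from -0.13 (without hnRNPL-deficient replicate 3) to 0.21, with -0.12 and -0.064 without WT replicates 2 and 3, and Ebf1 from -0.044 (without hnRNPL-deficient replicate 3) to 0.18. Irf4 ranged from -0.16 to 0.11 (without WT replicate 1), with 0.025 without hnRNPL-deficient replicate 2, and was at 0.015 with DESeq2 and 0.0050 with edgeR on 5 libraries, 0.10 after quantile normalization and 0.087 without both WT replicate 1 and hnRNPL-deficient replicate 3. Prdm1 ranged from -0.17 to 0.089 (without hnRNPL-deficient replicate 1), with 0.0075 without WT replicate 2, and was at 0.016 with equal totals. Xbp1 ranged from -0.11 to 0.048 (without hnRNPL-deficient replicate 3) and was at 0.011 with equal totals and 0.11 after quantile normalization. The Irf4 to Irf8 difference ranged from -0.36 to 0.077 over the libraries left out (the latter without WT replicate 1), that of Pax5 to Prdm1 from -0.12 to 0.31 (-0.12 without WT replicate 2, -0.035 without WT replicate 3, -0.070 and -0.092 without hnRNPL-deficient replicates 1 and 3) and that of Bcl6 to Prdm1 from 0.59 to 0.77. The cause of these changes was not tested. The lowest value of any member was 1233 normalized counts (Prdm1), whereas Jchain, Fkbp11 and Maff rested on 7.07 to 117 normalized counts per library.

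Same-numbered libraries deviated from their group means with correlations of 0.43, 0.32 and 0.07 across genes, and WT 3 was nearest to hnRNPL-deficient 2 (0.31), so the numbers were not taken to pair the mice. A figure legend of the paper that covers RNA-seq counts of these groups gives more than 1 experiment as the source. The sample labels do not say which library came from which experiment. With the replicate number as a block, 1755 genes were called higher and 1018 lower, 1 member (Bcl6, adjusted p = 0.00313) was called higher and 0 lower, and Bach2 had an adjusted p of 0.0136.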
